A study of Homo sapiens with 12 samples.

Results

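The data described here are the RNA levels of 31 transcriptional targets of p53 in 2 cell lines of uterine leiomyosarcoma (uLMS), a malignant tumor of uterine smooth muscle. The 31 genes were chosen as known targets of p53 and were found by their symbols among the 60649 genes of the count table. All 31 were present, and all 31 passed the filter on low counts that left 21114 genes for testing. SK-UT-1B is a line from a primary uLMS and SK-LMS-1 is a line from a vulvar metastasis. Cells were exposed for 72 h to DMSO vehicle, to MK-0752 alone (SK-LMS-1) or to a combination of MK-0752, gemcitabine and docetaxel (both lines). Gamma secretase, the target of MK-0752, is the protease that frees the active part of Notch receptors. Gemcitabine stops DNA synthesis as a false nucleoside, and docetaxel stabilizes microtubules. For SK-UT-1B there were 2 DMSO libraries and 2 of the combination. For SK-LMS-1 there were 4, 2 and 2 libraries of DMSO, MK-0752 and the combination. The labels gave the genotype WT for all 12 libraries. Each line is 1 established tumor line, so the libraries of a group are not separate tumors, and nothing in the labels says that they came from separate cultures, so p-values measure the spread between these libraries.

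p53 is a transcription factor that is stabilized after DNA damage and other stress and binds response elements near its target genes. Its targets include genes that stop the cell cycle (CDKN1A, which encodes p21), genes that promote apoptosis (FAS, TNFRSF10B), genes of DNA repair (DDB2, XPC), genes of metabolism and redox balance (SESN1, TIGAR) and genes that switch p53 off again (MDM2, PPM1D). p21 in turn favors the DREAM complex, through which many genes of mitosis and replication are repressed.

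The p53 response element consensus has 20 bases, 2 adjacent copies of a decamer, and reads the same on both strands, so 1 pass of a search covers both. Matches were sought in hg38 within 2500 bases on either side of the Ensembl canonical start of each gene, with no spacer between the copies, with the 4 central bases of each decamer intact and with at most 2 mismatches elsewhere. Such a match was present for 13 of the 31 targets (41.9%), compared with 2.26% of the 20033 windows of the same length around protein-coding genes. With no mismatch allowed, 2 of the 31 (6.45%) and 0.0649% of all windows had one. In the shorter RefSeq promoters (GRCh38.p14), which were listed for 24 of the 31 genes, AEN and FAS had a match, that is 2 of 35 promoters (5.71%) compared with 0.157% of 35116. The sequences of genes that the results below turn on follow, read along the strand of the gene, with the 4 central bases of each decamer in capitals. The 31 genes were chosen as known targets of p53, so a higher share of matches goes with that choice. It is not a result of these data. A match is a description of the sequence, and binding of p53 was not measured.
PLK2: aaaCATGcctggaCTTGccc
ZMAT3: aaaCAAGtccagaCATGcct
CDKN1A: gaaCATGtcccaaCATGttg
GDF15: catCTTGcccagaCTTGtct
BTG2: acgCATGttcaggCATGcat
SPATA18: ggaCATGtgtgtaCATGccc
FAS: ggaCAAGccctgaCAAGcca
AEN: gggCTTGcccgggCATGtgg

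The PLK2 match (chr5:58462274-58462293, minus strand) was 2198 bases upstream of the canonical start and had 0 mismatches. ZMAT3 also had 0 mismatches, in an intron 1611 bases downstream of its start (chr3:179070188-179070207, minus strand). The CDKN1A match (chr6:36676449-36676468, plus strand, 2 mismatches) was 2256 bases upstream of the canonical start and overlapped the first exon of a longer CDKN1A transcript. The matches of the other genes shown had 2 mismatches each. That of GDF15 (chr19:18385308-18385327, plus strand) was 841 bases upstream of the canonical start, in an intron of a longer transcript, and that of BTG2 (chr1:203303642-203303661, plus strand) was upstream by 1868 bases. SPATA18 had its match in an intron (chr4:52051957-52051976, plus strand), 662 bases downstream of its start. The FAS match (chr10:88991309-88991328, plus strand, 520 bases downstream) lay in sequence that is exonic in at least 1 FAS transcript, and the AEN match (chr15:88621306-88621325, plus strand) was 25 bases upstream of the start.

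Libraries held 25250057 to 40709885 counts in genes. The 4 DMSO libraries of SK-LMS-1 carried the first numbers 2 and 4 and were kept as 2 sets, set 2 as the control of MK-0752 (first number 2) and set 4 as the control of the combination (first number 4), because no source names the controls. In SK-UT-1B the DMSO libraries carried the first number 4 and the combination libraries 3, so whatever that number stands for cannot be told apart from the treatment. Of 9 smooth muscle markers, 6 had over 3 counts in both libraries of each SK-LMS-1 DMSO set and 5 in those of SK-UT-1B, with summed levels of 557 to 621 CPM (counts relative to the TMM-scaled library size) and 109 to 124 CPM. MYH11 and MYOCD, which mark mature smooth muscle, were at or near 0 in both lines after DMSO. DES was at 0 in all 8 SK-LMS-1 libraries, and KRT8 was at 0 in all 4 SK-UT-1B libraries. The leukocyte markers summed to at most 2.47 CPM in any library. In SK-UT-1B, the combination libraries 3-1 and 3-3 stood apart from each other in a list of 10 ATF4 stress genes. These are the stress factor ATF4 itself and targets of it. Their summed levels were 1853 and 553 CPM beside 859 to 889 CPM after DMSO, of which ATF4 alone made 520 and 98.2 CPM beside 194 and 213 CPM.

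In SK-UT-1B cells, exposure to the combination raised, relative to DMSO, 2 of the 31 p53 targets past the thresholds used here (adjusted p under 0.05 and an absolute log2FC of at least 1, where log2FC is the fitted log2 fold change). These were CDKN1A and PLK2, both genes of cell cycle and growth arrest. That count of 2 compares with 0.393% of all genes tested that were called higher. No target was called lower, compared with 0.166% of all genes. The median log2FC of the 31 targets was 0.26 and that of all genes tested was 0.00. In 21 of the 31 the log2FC was above 0, compared with 49.1% of all genes. In bulk RNA, a change in the share of cells that express a gene and a change per cell cannot be told apart.

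Among genes of cell cycle and growth arrest, PLK2 (chr5:58453982-58460139, minus strand), a kinase of the polo-like family, had 21 and 19 counts after DMSO and 158 and 155 after the combination (libraries are given in the order of their numbers throughout). Both combination libraries were far above both DMSO libraries. The log2FC was 3.00 ± 0.33 (SE), an 8.03-fold increase with a 95% confidence interval of 4.97 to 13.0, and the edgeR adjusted p was 5.9e-05. CDKN1A (chr6:36676460-36687337, plus strand), which encodes the cyclin-dependent kinase inhibitor p21, had 640 and 547 counts after DMSO and 1621 and 1087 after the combination. These groups did not overlap either, with a log2FC of 1.18 ± 0.26 (2.26-fold, edgeR adjusted p = 0.039). The call for CDKN1A was near the threshold and was lost without SK-UT-1B DMSO library 4-2 (log2FC 0.90, adjusted p = 0.24) or combination library 3-1 (log2FC 1.05, adjusted p = 0.10). It was also lost when any 1 of the DMSO or combination libraries of SK-LMS-1, which share the estimate of spread, was left out (adjusted p 0.059 to 0.083). Fitting the 4 libraries of SK-UT-1B alone kept the log2FC of PLK2 at 2.99 and that of CDKN1A at 1.18 and ended both calls (adjusted p = 0.60 and 0.59). BTG2, an antiproliferative gene, had 927 and 983 counts after DMSO and 959 and 1062 after the combination, and these overlapped once scaled to depth. The remaining members of this group, PLK3, GADD45A and SFN, did not pass the test, and SFN, which encodes 14-3-3 sigma, had 0 counts in 1 library of each SK-UT-1B group.

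**Figure D1:**
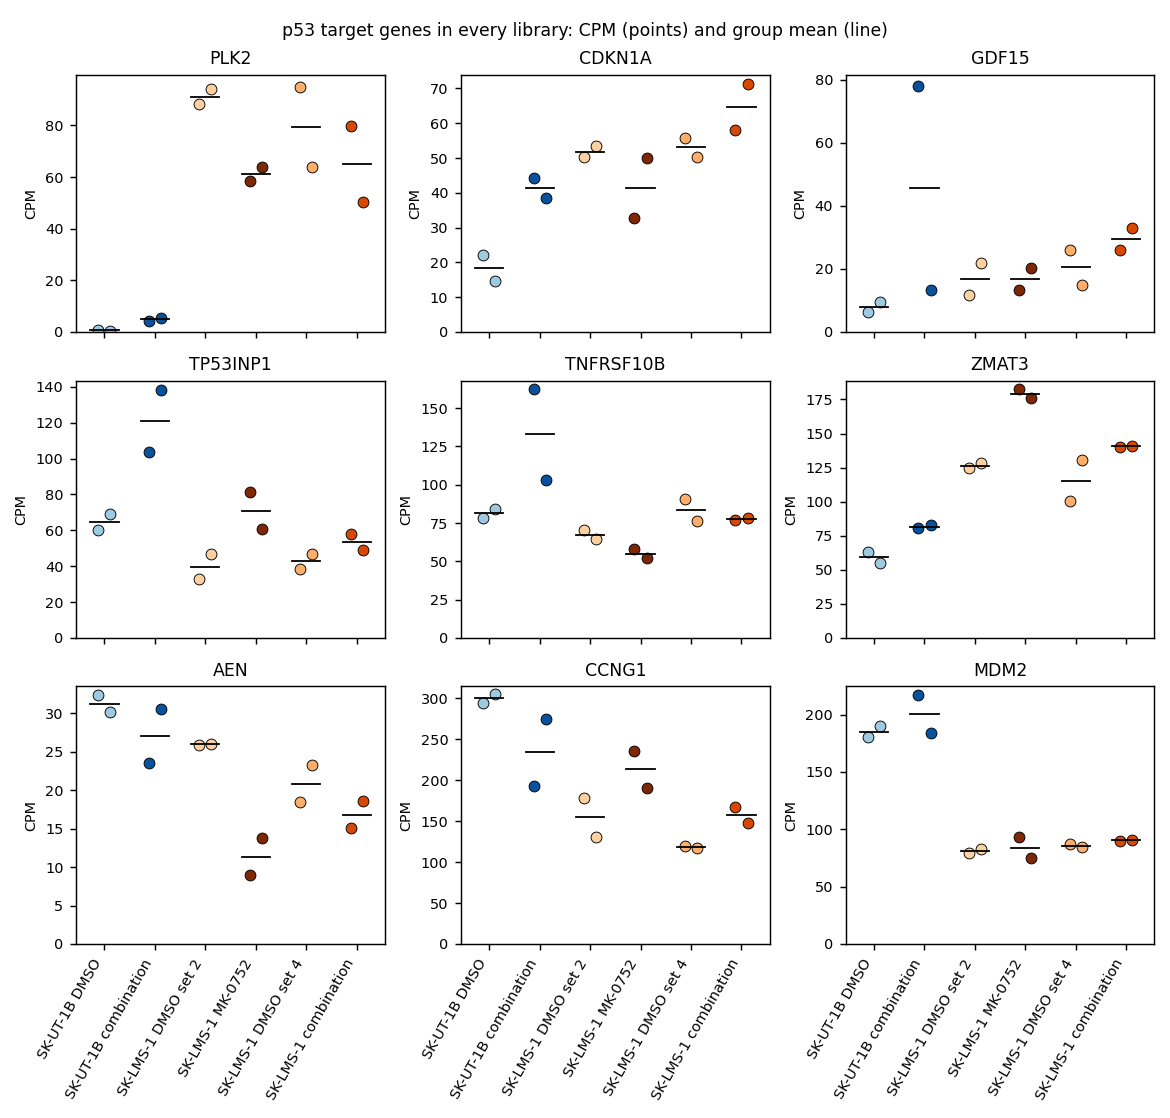
Levels of 9 p53 target genes in every library, in CPM (counts relative to the TMM-scaled library size) on a linear axis that starts at 0. Points are libraries and lines are group means of 2. PLK2 and CDKN1A lie higher in both SK-UT-1B combination libraries than after DMSO, the high GDF15 mean rests on 1 library at 78.0 CPM, and PLK2 is at 50.3 CPM or more in all SK-LMS-1 libraries.

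The 9 genes of death receptors and apoptosis included no call, with log2FC values between -0.28 and 0.90. TP53INP1, a cofactor that promotes p53-dependent death and autophagy, had 1741 and 2614 counts after DMSO and 3798 and 3894 after the combination. Both combination libraries were above both DMSO libraries, and the log2FC of 0.90 ± 0.23 had an edgeR adjusted p of 0.083. Without combination library 3-1 it was called, at 1.06 (adjusted p = 0.031). TNFRSF10B, the TRAIL receptor DR5, had 2266 and 3178 counts after DMSO and 5948 and 2910 after the combination. Scaled to depth these were 78.4 and 84.3 CPM compared with 163 and 103 CPM, so the groups did not overlap, with a log2FC of 0.71 (edgeR adjusted p = 0.14), which was 0.31 (0.97) without combination library 3-1 and 0.998 (0.0022), just under the fold threshold, without 3-3. ZMAT3, an RNA-binding regulator of splicing, had 1828 and 2068 counts after DMSO and 2951 and 2325 after the combination. Its log2FC was 0.47 with an edgeR adjusted p of 0.27. FAS, the receptor of FAS ligand, had 153 and 352 counts after DMSO and 359 and 217 after the combination, and its groups overlapped. AEN, a nuclease of apoptotic cells, had 934 and 1140 counts after DMSO and 861 and 863 after the combination. PERP, a membrane protein of desmosomes and apoptosis, had 499 and 658 counts and then 464 and 543. TRIAP1, an inhibitor of apoptosis, had 1193 and 1289 counts and then 1290 and 861. None of these 4 genes passed the test.

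Of the 8 genes of redox balance, metabolism and secreted signals, none was called, and GDF15 had the highest log2FC. GDF15, a secreted cytokine of the TGF-beta family that also responds to ATF4, had 185 and 358 counts after DMSO and 2855 and 376 after the combination. Both combination libraries were above both DMSO libraries, but the high value was that of library 3-1 alone (78.0 CPM), in which the ATF4 stress genes were also high. GDF15 in 3-3 (13.3 CPM) was near DMSO (6.40 and 9.50 CPM). The log2FC was 2.52 ± 0.76 with an edgeR adjusted p of 0.24, while DESeq2 called it (adjusted p = 0.0051). Without library 3-1 the log2FC was 0.71 (adjusted p = 0.95), and without 3-3 it was 3.29 (adjusted p = 1.9e-05). The part of the stress genes in these values was not tested. TIGAR, a phosphatase that lowers glycolysis, had 1191 and 1346 counts after DMSO and 2740 and 1512 after the combination, with a log2FC of 0.74 (adjusted p = 0.45, and 0.45 on the log2 scale without combination library 3-1) and groups that did not overlap once scaled. SESN1, a stress-induced inhibitor of mTORC1, had 417 and 573 counts after DMSO and 351 and 304 after the combination, both of the latter lower. FDXR, a mitochondrial reductase, had 91 and 243 counts and then 293 and 165. CMBL, a hydrolase, had 713 and 1707 counts and then 956 and 956. These 3 genes did not pass the test. SPATA18, which acts in mitochondrial quality control, had 63 and 271 counts after DMSO and 406 and 77 after the combination, and ACER2, a ceramidase of the Golgi, had 14 and 110 and then 69 and 129. For both, the spread within a group was as wide as the distance between groups.

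The feedback genes and the repair genes held no call in SK-UT-1B. MDM2, the ubiquitin ligase that degrades p53, had 5209 and 7165 counts after DMSO and 7954 and 5182 after the combination, a log2FC of 0.12 with a 95% confidence interval of -0.23 to 0.46. That interval includes 0 and lies below the fitted values of CDKN1A and PLK2. CCNG1, a cyclin that recruits a phosphatase to MDM2, had 8524 and 11508 counts and then 7069 and 7756, with a log2FC of -0.36 that was -0.15 without combination library 3-1 and -0.64 without 3-3. The log2FC of PPM1D, a phosphatase that turns off the p53 response, was 0.37. The 5 genes of DNA repair and nucleotide supply (DDB2, XPC, POLH, RRM2B and ASCC3) lay between -0.22 and 0.17. The 11 targets whose libraries are not given one by one here and that had counts throughout ranged in log2FC from -0.45 (PLK3) to 0.46 (GADD45A), and none passed. In all, 7 of the 31 targets were higher at an unadjusted p under 0.05 (5.41% of all genes) and 0 were lower (5.08% of all genes). Both combination libraries lay above both DMSO libraries for 10 of the 31 (16.7% of all genes) and below them for 2 (15.4%).

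In SK-LMS-1, exposure to MK-0752 called 0 of the 31 p53 targets by edgeR relative to DMSO set 2 and 0 by DESeq2, with 0.0568% of all genes called higher and 0.194% lower. At an unadjusted p under 0.05, 6 targets were higher (2.48% of all genes) and 2 were lower (3.94%). The median log2FC was 0.01, and that of all genes was 0.00. Both MK-0752 libraries lay above both DMSO libraries for 11 targets (16.9% of all genes) and below them for 7 (17.5%). DMSO set 2 and MK-0752 each have 2 libraries, and over the 27 targets with counts in every library the 95% confidence interval reached a median of 0.56 on the log2 scale to either side of the estimate.

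The targets with the lowest p after MK-0752 had log2FC values of both signs and missed the adjusted threshold in the full edgeR fit. AEN had 903 and 719 counts in set 2 and 318 and 509 with MK-0752, and both MK-0752 libraries were below both DMSO libraries. Its log2FC was -1.19 ± 0.31 (edgeR adjusted p = 0.16), and with no filter on low counts beyond 1 count it was -1.17 (adjusted p = 0.049). TP53INP1 had 1148 and 1290 counts in set 2 and 2891 and 2241 after MK-0752, with a log2FC of 0.84 (edgeR adjusted p = 0.20). In the plot of treatment effects, TP53INP1 and ZMAT3 were the targets whose 95% confidence interval lay above 0 in SK-UT-1B after the combination and in SK-LMS-1 after MK-0752. For ZMAT3 there were 4349 and 3544 counts in set 2 and 6507 and 6466 after MK-0752, a log2FC of 0.50 (edgeR adjusted p = 0.41). CMBL had 1459 and 1165 counts in set 2 and 2908 and 2676 after MK-0752, a log2FC of 0.88 (edgeR adjusted p = 0.29). Both libraries of MK-0752 were above both of set 2 for each of these 3 genes. With other settings of edgeR or DESeq2 (leaving out single libraries aside), the adjusted p ranged from 0.016 to 0.29 for TP53INP1. For CMBL it ranged from 0.026 to 0.35, and neither gene was called.

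Of the feedback genes, CCNG1 had 6223 and 3620 counts in set 2 and 8414 and 7025 after MK-0752 (log2FC 0.46, edgeR adjusted p = 0.61, and 0.26 to 0.70 with 1 library left out), and MDM2 had 2753 and 2285 and then 3320 and 2758 (log2FC 0.06). TRIAP1 had 177 and 320 counts and then 515 and 503 (log2FC 0.76, edgeR adjusted p = 0.78), a log2FC that was 0.28 without DMSO library 2-1 and 1.47 without 2-3. PLK2 went the other way, with 3075 and 2596 counts in set 2 and 2091 and 2350 after MK-0752 (log2FC -0.57, edgeR adjusted p = 0.73). All 4 of these genes missed the adjusted threshold, and the groups of CCNG1, TRIAP1 and PLK2 did not overlap. CDKN1A had 1753 and 1475 counts in set 2 and 1169 and 1838 after MK-0752. Scaled to depth, both MK-0752 libraries (32.8 and 49.9 CPM) were below both of set 2 (50.2 and 53.4 CPM). The log2FC of CDKN1A was -0.33 with a 95% confidence interval of -0.86 to 0.21. It was -0.05 without MK-0752 library 2-2 and -0.66 without 2-3. SPATA18 had 0 counts in both set 2 libraries and 15 and 0 after MK-0752, so its unadjusted p under 0.05 rested on 15 counts in 1 library. SESN1 had 192 and 147 counts in set 2 and 358 and 360 after MK-0752 (log2FC 0.87, edgeR adjusted p = 0.81), and ACER2 had 0 and 48 and then 92 and 83. GDF15 had 405 and 602 counts in set 2 and 471 and 747 after MK-0752, TNFRSF10B had 2466 and 1775 and then 2064 and 1919, and FAS had 1149 and 530 and then 734 and 493. TIGAR had 681 and 362 counts and then 480 and 559, PERP had 7633 and 5315 and then 7405 and 6969, and FDXR had 337 and 304 and then 366 and 345. None of these passed the test, although the groups of SESN1 and ACER2 (higher) and of TNFRSF10B (lower) did not overlap once scaled. The 11 further targets with counts throughout ranged from -0.30 (SUSD6) to 0.42 (POLH).

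After the combination, SK-LMS-1 also had 0 of the 31 targets called relative to DMSO set 4, by edgeR and by DESeq2, with 0.0142% of all genes called higher and 0.00947% lower. At an unadjusted p under 0.05, 3 targets were higher (3.17% of all genes) and 0 were lower (1.16%). The median log2FC was 0.08 beside 0.03 for all genes, and 23 of the 27 targets with counts in every library had an absolute log2FC under 0.5. Non-overlapping groups were higher for 8 targets (21% of all genes) and lower for 3 (11.4%).

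SESN1 had the highest log2FC of these 27 in SK-LMS-1 after the combination, with 70 and 158 counts in set 4 and 303 and 170 after treatment. Its log2FC was 1.21 ± 0.46 (edgeR adjusted p = 0.91). CCNG1 had 2939 and 4504 counts in set 4 and 5573 and 3609 after the combination, a log2FC of 0.42 (edgeR adjusted p = 0.91). Both genes had groups that did not overlap once scaled to depth. With set 2 as the control in place of set 4, the log2FC of SESN1 was 0.57 and that of CCNG1 was 0.03, and the set 2 libraries of CCNG1 (131 and 178 CPM) spanned the treated ones (148 and 167 CPM). ACER2 had 0 counts in both libraries of set 4 and 8 and 26 after the combination, at least 6.55-fold higher against a floor of 3 counts per library, or 2.41-fold and 10.7-fold with combination library 4-1 or 4-2 alone. Set 2 of the DMSO libraries, however, had 0 and 48 counts of ACER2, so the range of all 4 DMSO libraries covered the treated ones. CDKN1A had 1373 and 1943 counts in set 4 and 1936 and 1734 after the combination (log2FC 0.29, 95% confidence interval -0.24 to 0.82, and 0.13 to 0.42 with 1 library left out). PLK2 had 2341 and 2463 counts in set 4 and 2651 and 1226 after the combination (log2FC -0.29, and -0.66 to 0.03 with 1 library left out). MDM2 had 2143 and 3250 counts and then 2984 and 2216 (log2FC 0.08). No named target with counts in every library was called. GDF15 had 642 and 578 counts in set 4 and 860 and 802 after the combination, and its groups overlapped once scaled.

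The 9 apoptosis genes had log2FC values between -0.31 and 0.33 in SK-LMS-1 treated with the combination. TP53INP1 had 951 and 1811 counts in set 4 and 1937 and 1198 with treatment (log2FC 0.33, and 0.19 to 0.48 with 1 library left out), and ZMAT3 had 2480 and 5031 and then 4656 and 3440 (0.28, and 0.11 to 0.48). Scaled to depth, both combination libraries were above both DMSO libraries for these 2 genes, which did not pass the test. AEN had 455 and 898 counts and then 501 and 454 (-0.31, and -0.47 to -0.13 with 1 library left out). TNFRSF10B had 2235 and 2936 and then 2569 and 1901 (-0.10, and -0.22 to 0.03). FAS had 453 and 667 and then 692 and 434 (0.11, and -0.0016 to 0.22). TRIAP1 had 231 and 474 counts and then 335 and 285, and PERP had 4778 and 7943 and then 7191 and 4824. The groups of these 5 genes overlapped. FDXR had 485 and 421 counts in set 4 and 304 and 207 with treatment, both lower (log2FC -0.79, edgeR adjusted p = 0.91, -0.31 without DMSO library 4-1, and -0.23 with set 2 as the control). CMBL had 1162 and 1497 and then 1847 and 1133, and TIGAR had 207 and 585 and then 523 and 211. BTG2 had 0 counts in both set 4 libraries and 43 and 0 with treatment. The 11 further targets with counts throughout ranged from -0.72 (PPM1D) to 0.41 (RRM2B).

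**Figure D2:**
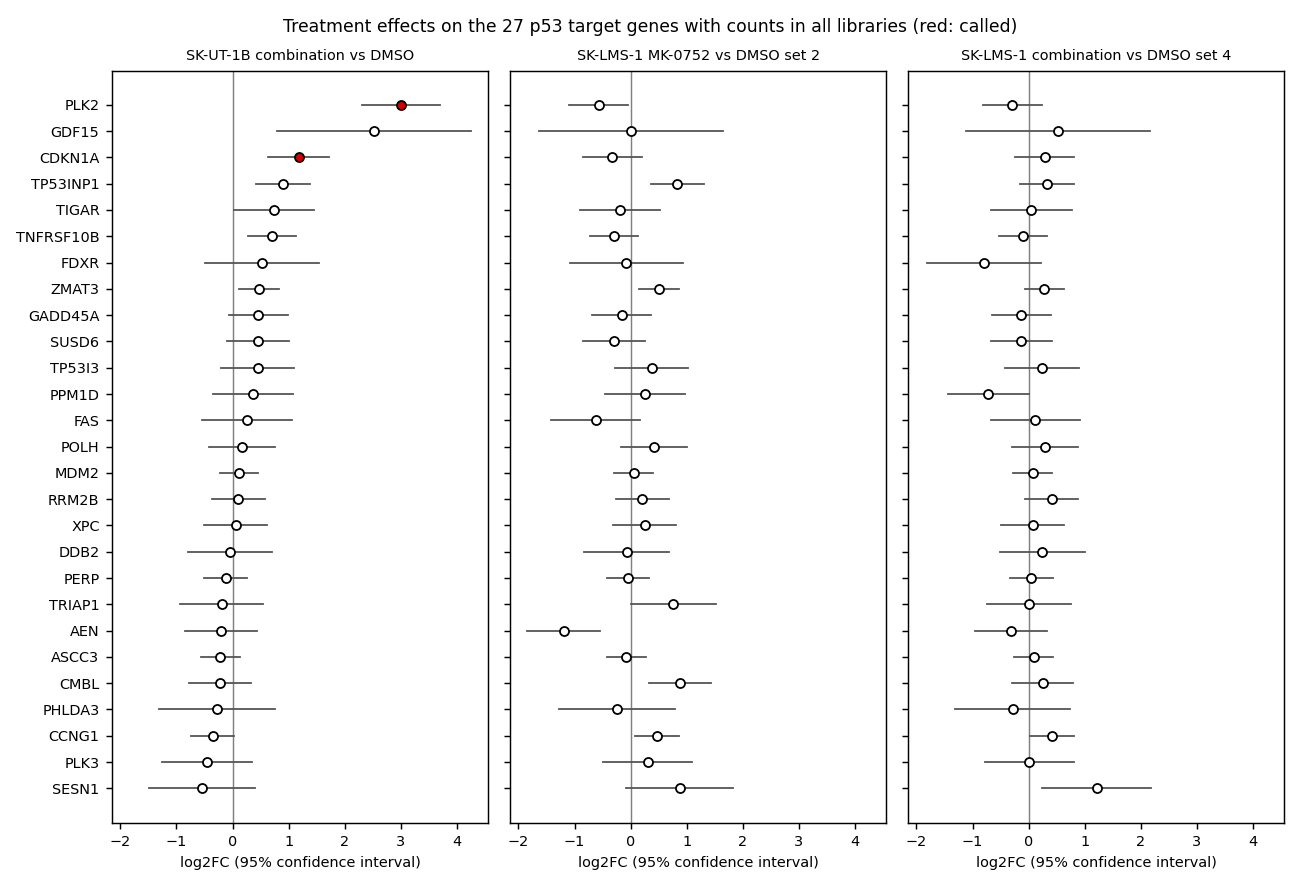
The log2FC relative to DMSO of the 27 p53 target genes with counts in all libraries, with 95% confidence intervals, for 3 treatment comparisons on a shared axis. Red points are called (PLK2 at 3.00 and CDKN1A at 1.18 in SK-UT-1B), open points are not, and BTG2, SPATA18, ACER2 and SFN are not drawn because they had 0 counts in at least 1 library.

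Whether the combination acted differently in the lines was tested as the difference of the effects, SK-UT-1B minus SK-LMS-1. Each line was given its own doses of the drugs in the combination, so line and dose cannot be told apart here. The first library number differed between combination (3) and DMSO (4) in SK-UT-1B but was 4 for both groups in SK-LMS-1. Whatever that number stands for cannot be told apart from the line here either. Of the 31 targets, 1 was called, PLK2, compared with 0.147% of all genes called higher and 0.0853% lower in that difference. The PLK2 effects were 3.00 and -0.29 on the log2 scale, a difference of 3.29 ± 0.42 (edgeR adjusted p = 0.00054), which remained called in each of the alternative settings tried. For CDKN1A the difference was 0.89 ± 0.36 (edgeR adjusted p = 0.60), so the lines were not shown to differ for that gene. SESN1 (difference -1.75), TNFRSF10B (0.81), PPM1D (1.09) and CCNG1 (-0.78) also missed the threshold (edgeR adjusted p 0.46 to 0.63). Without SK-UT-1B combination library 3-3, that is with 3-1 alone, 4 targets were called, GDF15 (2.77), TNFRSF10B (1.10) and CCNG1 (-1.06) beside PLK2, in a setting that called 498 of all genes tested compared with 49 in the full fit. Without library 3-1 these 3 differences were 0.23, 0.45 and -0.54, and PLK2 alone was called. In SK-LMS-1, MK-0752 alone and the combination did not differ in effect past the thresholds for any of the 31 by edgeR or DESeq2 (0.0379% of all genes were called, 0.00474% higher after MK-0752 and 0.0332% lower). At an unadjusted p under 0.05, 1 target was lower, BTG2 (3.62% of all genes), a gene at 0 in several of these libraries. The doses of MK-0752 differed between these treatments.

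More targets were called between the lines than in any treatment comparison. After DMSO, 18 of the 31 p53 targets differed past the thresholds (31.1% of all genes), 9 higher in SK-LMS-1 (17% of all genes) and 9 lower (14.1% of all genes). The median log2FC was -0.04 beside 0.00 for all genes. After the combination, 10 were called (25.4% of all genes), 4 higher (15.6% of all genes) and 6 lower (9.88% of all genes). These comparisons are between 2 tumor lines and not between a primary tumor and its metastasis. After the combination, the lines also differed in the doses of the drugs and in the first library number (4 in SK-LMS-1, 3 in SK-UT-1B).

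By role, the 3 feedback genes were all called lower in SK-LMS-1 when the DMSO libraries were compared (14.1% of all genes). MDM2 (2753, 2285, 2143 and 3250 counts in SK-LMS-1 and 5209 and 7165 in SK-UT-1B) had a log2FC of -1.15 (edgeR adjusted p = 1.1e-06), PPM1D of -1.15 (0.0028) and CCNG1 of -1.15 (5.1e-06). MDM2 and PPM1D were also called lower after the combination (log2FC -1.15 and -1.92), and CCNG1 was lower under the fold threshold there (-0.57, adjusted p = 0.023, and -0.29, 0.29 without SK-UT-1B library 3-3). Regulators outside the 31 differed in both directions, for example MDM4, a partner of MDM2 that restrains p53, with a log2FC of -1.46 (edgeR adjusted p = 1.9e-05), and the kinase HIPK2 with 3.40 (3.4e-14).

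Of the 6 genes of cell cycle and growth arrest, 4 were called higher in SK-LMS-1 after DMSO (17% of all genes) and 1 lower (14.1%). The 9 apoptosis genes also had 4 called higher and 1 lower. PLK2 had 3075, 2596, 2341 and 2463 counts in the DMSO libraries of SK-LMS-1 against 21 and 19 in SK-UT-1B. The log2FC was 7.12 ± 0.35, a 139-fold difference (edgeR adjusted p = 1.6e-12), and it was 3.73 (2.6e-09) after the combination, which raised PLK2 in SK-UT-1B only to 4.32 and 5.50 CPM. CDKN1A had 1753, 1475, 1373 and 1943 counts in SK-LMS-1 and 640 and 547 in SK-UT-1B, a log2FC of 1.52 (2.8e-05), and it was no longer called after the combination (0.64, 0.061). PLK3 (1.08) and GADD45A (1.04) were also called after DMSO. After the combination PLK3 was called (1.95, edgeR adjusted p = 0.00054) and GADD45A was not (0.62, 0.065). BTG2 (chr1:203305491-203309602, plus strand) went the other way, with 120, 12, 0 and 0 counts in SK-LMS-1 and 927 and 983 in SK-UT-1B. Every SK-LMS-1 library was far below SK-UT-1B, with a fitted log2FC of -8.38 (adjusted p = 0.015). With all 4 SK-LMS-1 DMSO libraries fitted as 1 group it was -4.88 and the call was lost (0.067). After MK-0752 and the combination, SK-LMS-1 had 16 and 0 and then 43 and 0 counts of BTG2.

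PERP (chr6:138088505-138107419, minus strand) was the apoptosis gene with the widest distance between the lines. It had 7633, 5315, 4778 and 7943 counts in SK-LMS-1 and 499 and 658 in SK-UT-1B after DMSO. This is a log2FC of 3.54 ± 0.19 (11.7-fold, edgeR adjusted p = 7.1e-12), and it was 3.70 after the combination. FAS had 1149, 530, 453 and 667 counts in SK-LMS-1 and 153 and 352 in SK-UT-1B, with a log2FC of 1.56 (adjusted p = 0.0013), and its library 2-1 stood above the other SK-LMS-1 libraries. After the combination FAS was called at 1.14 (0.027), a call lost without either SK-LMS-1 combination library or without SK-UT-1B library 3-3 (adjusted p 0.070 to 0.15). ZMAT3 (log2FC 1.03) and SUSD6 (1.11) were called higher as well, and ZMAT3 fell under the fold threshold (0.93 to 0.999) without SK-LMS-1 DMSO library 4-2, SK-UT-1B DMSO library 4-2 or SK-UT-1B combination library 3-1. TRIAP1 was called lower, with 177, 320, 231 and 474 counts in SK-LMS-1 against 1193 and 1289 in SK-UT-1B (log2FC -1.99, adjusted p = 1.6e-05). TP53INP1 was at -0.65 after DMSO, under the fold threshold, and was called lower after the combination (-1.17, and -0.95 without SK-UT-1B library 3-3). TNFRSF10B, AEN and PHLDA3 did not pass the test after DMSO. After the combination TNFRSF10B was lower in SK-LMS-1 under the fold threshold (-0.78, edgeR adjusted p = 0.0056). That log2FC was -1.07 without SK-UT-1B library 3-3 and -0.44 without 3-1.

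Of the 8 genes of redox balance, metabolism and secreted signals, 4 were called lower (14.1% of all genes) and 1 higher (17%) in SK-LMS-1 DMSO libraries. SPATA18 had 0 counts in all 4 SK-LMS-1 DMSO libraries and 63 and 271 in SK-UT-1B, at least 47.5-fold lower against a floor of 3 counts per library, or at least 22.1-fold and 73.0-fold with SK-UT-1B library 4-1 or 4-2 alone. It was also at 0 in both SK-LMS-1 combination libraries, at least 64.8-fold lower than in SK-UT-1B, or at least 104-fold and 25.6-fold with library 3-1 or 3-3 alone. ACER2 had 0, 48, 0 and 0 counts against 14 and 110, and these groups overlapped, although the model called it lower (adjusted p = 0.032), a call lost without SK-LMS-1 library 4-1 or 4-2 or SK-UT-1B library 4-2 (adjusted p 0.068 to 0.25). The ACER2 call was also lost with the libraries of the comparison only (log2FC -4.90, 0.11) and with all 4 SK-LMS-1 DMSO libraries as 1 group (-1.97, 0.38). SESN1 had 192, 147, 70 and 158 counts in SK-LMS-1 against 417 and 573 (log2FC -1.77, adjusted p = 0.00071), and TIGAR had 681, 362, 207 and 585 against 1191 and 1346 (-1.47, 0.00029). TIGAR was called lower after the combination too (-2.40), and SESN1 was not (-0.34). FDXR had 337, 304, 485 and 421 counts in SK-LMS-1 and 91 and 243 in SK-UT-1B, the gene called higher (log2FC 1.39, adjusted p = 0.017), which missed the threshold without SK-LMS-1 library 4-1 (1.14, 0.054) or SK-UT-1B library 4-1 (0.91, 0.22). GDF15 had 405, 602, 642 and 578 counts against 185 and 358 (1.22, adjusted p = 0.18). GDF15 was called at 1.18 to 1.21 with the libraries of the comparison only or without SK-UT-1B combination library 3-1 or 3-3 (0.0034 to 0.033). CMBL had 1459, 1165, 1162 and 1497 counts in SK-LMS-1 against 713 and 1707, and did not pass the test. None of the 5 repair genes reached the fold threshold after DMSO, where POLH (-0.97), the translesion polymerase, and RRM2B (-0.68), a ribonucleotide reductase subunit, were lower at an adjusted p under 0.05.

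**Figure D3:**
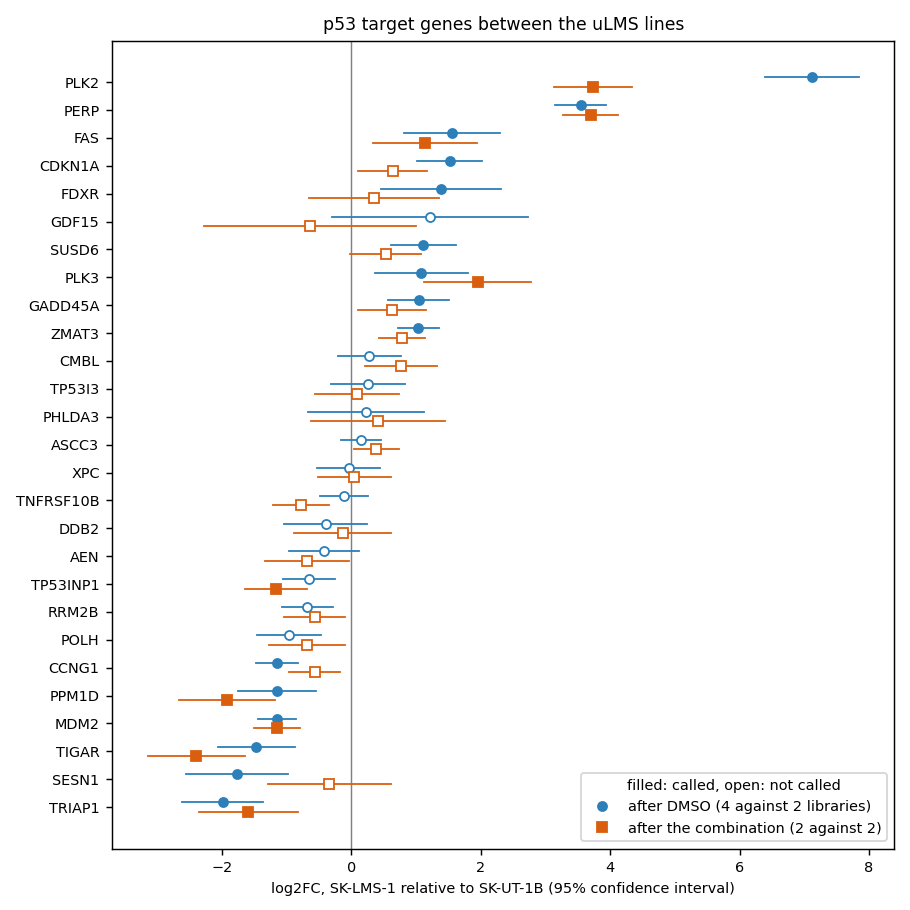
The log2FC between the lines (SK-LMS-1 over SK-UT-1B) for 27 p53 target genes, after DMSO (circles) and after the combination (squares), with 95% confidence intervals, ordered by the value after DMSO. Filled points are called, and the genes lie on both sides of 0, from TRIAP1 at -1.99 to PLK2 at 7.12.

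Levels can be compared between genes only per length, here as CPM per kilobase of the canonical transcript. CCNG1 was the most abundant of the 31 in both lines after DMSO, at 123 ± 2.94 CPM per kilobase (SD, n = 2) in SK-UT-1B and 55.8 ± 11.7 (SD, n = 4) in SK-LMS-1. PLK2 was the least abundant in SK-UT-1B (0.221 ± 0.0566) and ranked 4 of 31 in SK-LMS-1 (30.6 ± 5.24). PERP ranked 21 in SK-UT-1B (4.14 ± 0.0300) and 2 in SK-LMS-1 (48.3 ± 2.91). BTG2 ranked 9 in SK-UT-1B (10.7 ± 1.56) and 29 in SK-LMS-1 (0.355 ± 0.608). MDM2 ranked 3 in SK-UT-1B (24.7 ± 0.917) and 10 in SK-LMS-1 (11.1 ± 0.448). The summed levels of the 31 genes overlapped between the lines, at 1346 to 1434 CPM in the SK-UT-1B DMSO libraries and 1380 to 1452 CPM in those of SK-LMS-1.

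**Figure D4:**
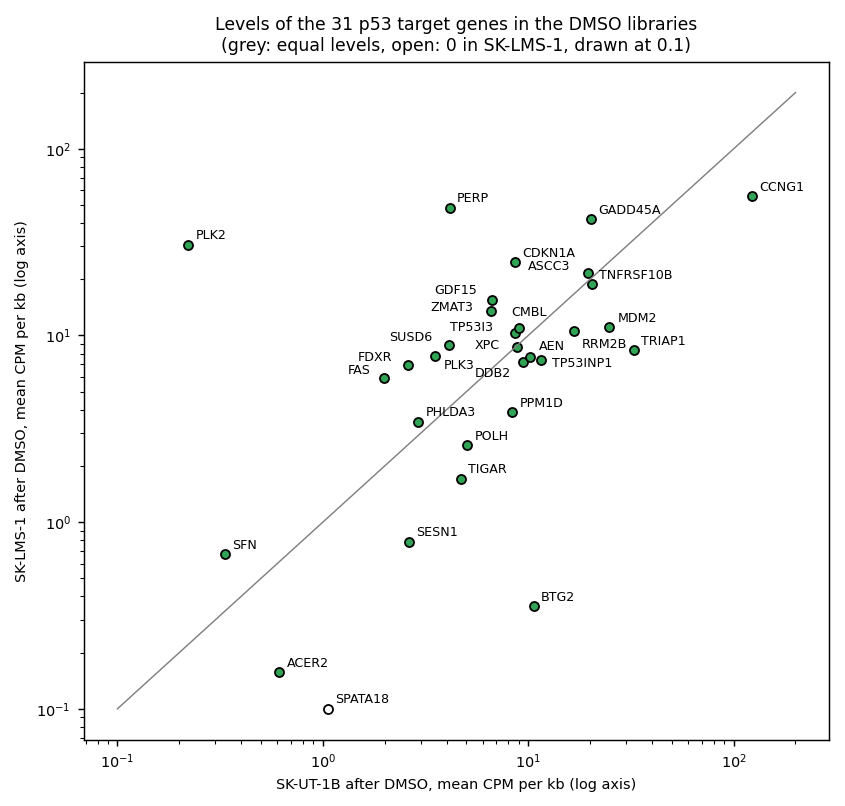
Mean CPM per kilobase of the 31 p53 target genes after DMSO in SK-UT-1B (2 libraries, horizontal) and SK-LMS-1 (4 libraries, vertical), on log axes with a line of equal levels. PLK2 (0.221 and 30.6) and PERP (4.14 and 48.3) lie above the line and BTG2 (10.7 and 0.355) below it, and SPATA18, at 0 in SK-LMS-1, is drawn at 0.1.

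Within SK-LMS-1, the 2 sets of DMSO libraries differed by 0 calls among the 31 targets by edgeR and by DESeq2 (0% of all genes called by edgeR). At an unadjusted p under 0.05, PLK3 was higher in set 4 (2.14% of all genes), and BTG2 and ACER2 were lower there (3.53%). These 2 genes were at 0 in both set 4 libraries, at least 19.4-fold and 8.72-fold lower than the means of set 2, each of which rested mainly on 1 library.

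Other genes of the pathway were described by the same fit. Of the regulators of p53, HIPK2, a kinase that phosphorylates it, had 2847 and 3688 counts in SK-UT-1B after DMSO and 5501 and 3963 after the combination, higher by 0.57 on the log2 scale (edgeR adjusted p = 0.039) and under the fold threshold. MDM4 had 3149 and 3655 counts after DMSO and 5857 and 2199 after the combination, and was not called. TP73, which encodes the related factor p73, was at 0 in all 8 SK-LMS-1 libraries and had 777 and 945 counts in SK-UT-1B after DMSO. Of 34 further p53 targets, 32 of which passed the filter, TNFRSF10D, a decoy receptor of TRAIL, was called higher in SK-UT-1B after the combination, with 124 and 235 counts after DMSO and 686 and 468 after treatment (log2FC 1.74, adjusted p = 0.0046). LIF, a cytokine, was called lower in SK-LMS-1 after MK-0752, with 2689 and 2559 counts and then 1052 and 1632 (log2FC -1.20, adjusted p = 0.028). The medians of this list were 0.13, -0.05 and 0.02 in the 3 treatment comparisons, beside 0.00, 0.00 and 0.03 for all genes.

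The 23 cell cycle genes that are repressed through p21 and DREAM had a median log2FC of -0.74 in SK-UT-1B after the combination, -0.69 in SK-LMS-1 after MK-0752 and -0.31 with the combination in SK-LMS-1, each beside the medians of all genes just given. In SK-UT-1B the summed level was 2516 CPM in combination library 3-1 and 3425 CPM in 3-3, beside 4456 to 4776 CPM after DMSO. Of the 23 genes, 22 were lower in 3-1, the library high in ATF4 stress genes, than in 3-3. Against the DMSO mean, the median log2 ratio was -1.07 in 3-1 and -0.44 in 3-3, and the part of that library in the result was not tested. In the fit, the log2FC was below 0 for all 23, while it was above 0 for 49.1% of all genes. At an unadjusted p under 0.05, 16 were lower (5.08% of all genes), and 1 was called lower (0.166% of all genes). That was CCNA2, the cyclin of S and G2 phase, with 6086 and 8921 counts after DMSO and 2473 and 3704 after the combination (log2FC -1.17, edgeR adjusted p = 0.036). After MK-0752, 16 were again lower at an unadjusted p under 0.05 (3.94% of all genes), and 1 was called lower (0.194% of all genes). That was CCNB1, the mitotic cyclin (3401 and 2619 counts, then 1442 and 1847, log2FC -1.09, edgeR adjusted p = 0.029). MKI67 (-0.91, adjusted p = 0.0049) and FOXM1 (-0.83, adjusted p = 0.028) were lower too, under the fold threshold. CDKN1A was not called there, at the log2FC of -0.33 that moved with each MK-0752 library. For SK-LMS-1 with the combination, 3 were lower at an unadjusted p under 0.05 (1.16% of all genes) and none was called (0.00947% of all genes were called lower). The 10 ATF4 stress genes, ATF4 itself included, held 0 calls by edgeR in the treatment comparisons, with medians of 0.50, -0.50 and -0.08. At an unadjusted p under 0.05 none passed.

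**Figure D5:**
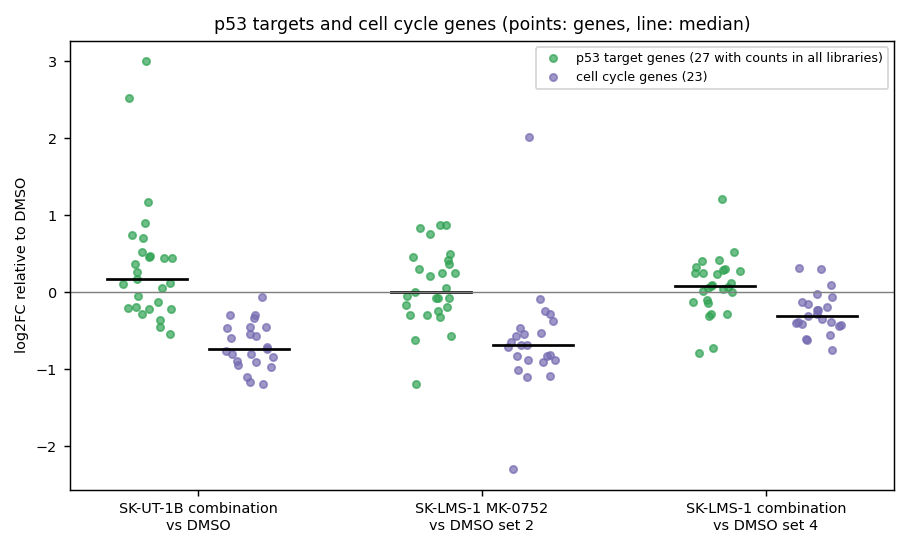
The log2FC relative to DMSO of 27 p53 target genes (green) and 23 cell cycle genes repressed through p21 and DREAM (purple) in the 3 treatment comparisons, with points for genes and black lines for medians. The cell cycle medians are -0.74, -0.69 and -0.31, and the purple point at 2.01 after MK-0752 is PRC1, which had at most 6 counts in each of these 4 libraries.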

How the data were processed

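The authors prepared stranded total RNA libraries with removal of ribosomal RNA, trimmed single-end reads with Trim Galore 0.3.7, aligned them to hg38 with STAR 2.7.9a, filtered ribosomal reads with SortMeRNA, and the deposited values are raw, unnormalized counts per gene. The annotation, the strand setting of the counting and any removal of duplicates are not given in the sources used here. So genes whose exons overlap another gene, among them XPC (33.5% of exon bases), TIGAR (19.4%), PHLDA3 (18.4%), MDM2 (16.3%), FAS (8.36%), TNFRSF10B (7.52%), SESN1 (4.99%) and CDKN1A (4.87%), carry counts that cannot be assigned with certainty.

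The 31 targets and the other gene lists were chosen with earlier results of these data known. An item of these lists is not reported here. Counts of all 12 libraries in 6 groups of 2 were fitted with edgeR 4.0.16 in R 4.3.3 (TMM, filterByExpr, robust quasi-likelihood test), which left 21114 of 60649 genes. P-values were adjusted by Benjamini-Hochberg over these genes, and a call needed an adjusted p under 0.05 and an absolute log2FC of at least 1. Printed percentages of all genes use the same rule. Counts per library are given for CDKN1A, MDM2 and GDF15, for targets at an unadjusted p under 0.05 in a treatment comparison, for the 6 highest and 6 lowest log2FC between the lines after DMSO and for targets at 3 counts or fewer in both libraries of a group. Alternatives were DESeq2 1.42.0, its size factors, other filters, other controls, the libraries of 1 comparison alone, a replicate block and leaving out each library. The scripts were tested on simulated data with 200 genes changed 4-fold in the SK-UT-1B combination libraries. Of these genes 81% were called, 7.43% of the calls were false, and a comparison without change had 0 calls. Smaller changes were not simulated, so the share of them that would be called is not known. Coordinates and lengths are from GENCODE 44 on hg38. Intervals and floors cover counting error and the spread of these libraries only.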

Additional observations from a re-analysis of the deposited data

Results flagged for a closer look

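In the 4 DMSO libraries of SK-LMS-1, 1 library lay apart from the rest for 4 of the targets, judged by the gap to the nearest library as a share of the whole range. That share was 0.878 for FAS (library 2-1, 32.9 CPM, others 17.3 to 19.2 CPM), 0.865 for FDXR (library 4-1, 19.7 CPM, others 9.66 to 11.0 CPM), 0.874 for BTG2 (library 2-1, 3.44 CPM, others 0 to 0.43 CPM) and 1 for ACER2 (library 2-3, 1.74 CPM, others 0). Chance flags about 1 group in 20, and 31 targets were looked at. The FAS and BTG2 values are in the same library, and the FDXR and ACER2 values are in others.

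PLK2 was the target whose combination effect differed between the lines, by 3.29 on the log2 scale (SK-UT-1B minus SK-LMS-1, edgeR adjusted p = 0.00054). All 4 SK-UT-1B libraries were between 0.50 and 5.50 CPM and all SK-LMS-1 libraries were at 50.3 CPM or more. The doses of the combination and the first number of its libraries differed between the lines.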

How the results depend on the processing

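The count of called targets in SK-UT-1B after the combination (2) was 1 with a mean of at least 50 counts, 1 with the replicate block, 0 with the libraries of the comparison only and 1 to 3 when 1 library was left out, and it was 3 with DESeq2 and with no filter beyond 1 count. The count after MK-0752 (0) was 1 with no filter beyond 1 count. The count for the difference between the combination effects (1) was 1 to 4 when 1 library was left out. Counts between the lines stayed at 15 to 19 after DMSO and 9 to 11 after the combination, and those of the combination in SK-LMS-1, of the difference between its treatments and of its DMSO sets stayed at 0 in each setting. Among the single named targets, 27 settings ended a call and 18 made one, and no called value changed sign. The CDKN1A call was lost in 11 settings (adjusted p 0.059 to 0.59), and the cause was not tested. For same-numbered libraries of the SK-LMS-1 DMSO set 4 and combination groups, the deviations had r = -0.047 across 10703 genes, which are not independent. With 2 libraries a group, that value cannot show whether same-numbered libraries shared a culture or a batch. The replicate block changed no other count of called targets by over 1.5 times. Over all genes, the calls in SK-UT-1B were 118, and 376 with DESeq2, 420 with no filter and 0 with the libraries of the comparison only. Without SK-UT-1B combination library 3-3 they were 812, those of the difference between the lines' effects 498, and those of MK-0752 were 14 without MK-0752 library 2-3. In the full fit, with DESeq2, with no filter and with the comparison only, the calls were 53, 131, 175 and 99 for MK-0752, 5, 36, 73 and 0 for the combination in SK-LMS-1, and for the difference between the lines' effects 49, 148, 303 and 20. They were for the difference between the SK-LMS-1 treatments 8, 40, 89 and 27, and for the DMSO sets 0, 33, 76 and 0. With a mean of at least 50 counts, the calls in SK-UT-1B, for MK-0752, for the combination in SK-LMS-1 and for the difference between the lines' effects were 81, 35, 1 and 24, and with the replicate block 92, 42, 2 and 32. With 2 libraries a group, small changes of targets with few counts (PLK2 in SK-UT-1B, SPATA18, ACER2 and BTG2 in SK-LMS-1) were not measured closely.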
